A study of Mus musculus with 6 samples.

Results

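The cells described here are NMPs A, the first of 3 clusters that the deposited annotation names after neuromesodermal progenitors. They were taken by that name alone and number 3172 of the 26968 annotated cells of mouse stembryos. Stembryos, also called gastruloids, are aggregates of mouse embryonic stem (mES) cells that elongate in culture and form tissues of the posterior trunk. Single-cell RNA-seq was run on wild-type stembryos of mES cells at 120 h and at 96 h after aggregation, and no group carried a mutation. At 120 h there were whole stembryos (replicates 1 and 2) and another collection dissected into a posterior and an anterior part, against whole stembryos at 96 h (replicates 1 and 2). All groups were made from mES cells that, by the study's methods, received a pulse of a Wnt agonist in culture. Each library pooled many stembryos, and those that failed to elongate were left out at 120 h. No label says that replicates came from separate cultures, so the p-values measure the spread between these libraries, which may be technical.

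Neuromesodermal progenitors are cells of the posterior end of the embryo from which both the spinal cord and the paraxial mesoderm of the trunk and tail are made. They are recognised by joint expression of T, the mesodermal transcription factor also called Brachyury, and Sox2, a transcription factor of neural progenitors. Wnt and Fgf signals made in and around these cells maintain them, Cdx factors act with these signals on posterior Hox genes, and Cyp26a1 breaks down retinoic acid, which promotes differentiation. Hox genes lie in clusters and come on in the order of their position, so that cells of a growing axis add genes of higher paralog number over time.

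NMPs A were mostly cells of 96 h. They made up 13 cells or 0.267% of 4867 (exact Clopper-Pearson 95% interval 0.142 to 0.456%) in replicate 1 and 34 cells or 1.27% of 2683 (0.879 to 1.77%) in replicate 2 of whole stembryos at 120 h. In whole stembryos at 96 h they were 2765 cells or 56.0% of 4938 (54.6 to 57.4%) in replicate 1 and 315 cells or 11.9% of 2649 (10.7 to 13.2%) in replicate 2. The shares at the 2 times did not overlap, and the 96 h replicates differed from each other by more than their counting intervals. Mean shares were 0.767 ± 0.707% at 120 h and 33.9 ± 31.2% at 96 h (SD, n = 2 each), a difference of -33.2 percentage points. An exact two-sided permutation test gave p = 0.3333, the smallest value that 2 libraries against 2 allow, and the difference was -11.1 points without replicate 1 of 96 h and -55.2 points without replicate 2 of 96 h.

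In the dissected stembryos, 45 NMPs A cells lay in the posterior part, 0.571% of 7887 (0.416 to 0.763%). None was found among the 3944 cells of the anterior part (exact 95% upper bound 0.0935%), where 3 cells would be a share of 0.0761%. This is 1 collection, with no replicate of either part. Intervals and limits of this kind cover counting error only.

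Replicate 1 of 96 h alone supplied 87.2% of all NMPs A cells, and replicate 2 supplied 9.93%. The rest of the neuromesodermal cells split by library. Of the cells carrying any of the 3 NMP names, NMPs A were 0.816% and 4.89% in whole stembryos and 3.46% in the posterior part at 120 h, against 97.6% and 16.1% at 96 h. NMPs B held 1632 cells of 96 h replicate 2 but 43 cells of 96 h replicate 1. By the deposited annotation, replicate 1 of whole stembryos at both times was batch 1 on 10x chemistry V3. Replicate 2 of both times was batch 4 on V3.1, so the library that holds an NMP name and the batch cannot be told apart within 96 h. The posterior and anterior parts were batch 2 on V3.

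**Figure D1:**
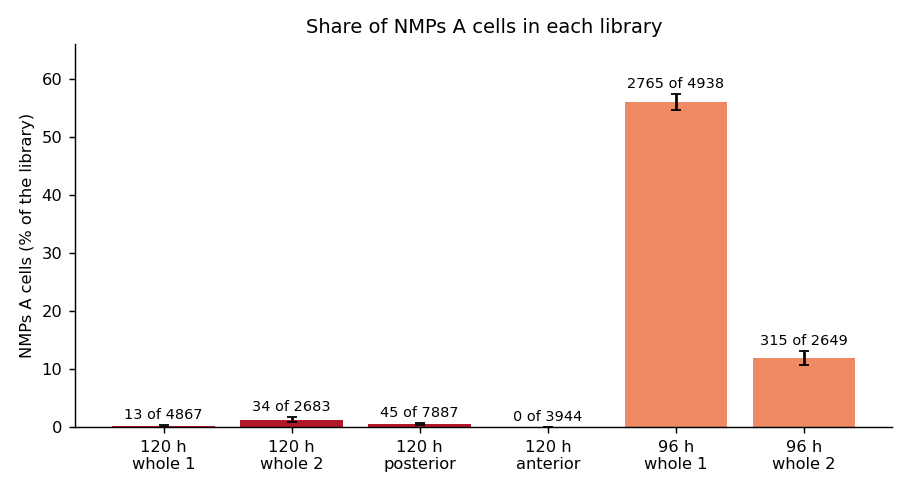
Share of cells named NMPs A (percent of the library, vertical axis) in each library, 120 h libraries left of 96 h libraries, with exact 95% binomial intervals as error bars and the cell counts above. NMPs A reached 56.0% in replicate 1 and 11.9% in replicate 2 at 96 h and at most 1.27% in any library at 120 h.

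Library totals ran between 24303317 and 117580506 UMIs, each UMI (unique molecular identifier) being 1 counted transcript. NMPs A summed to 202714 and 283954 UMIs in whole stembryos and 558062 in the posterior part at 120 h, against 65991315 and 2864903 at 96 h. Expression is in CPM, the UMIs of a gene summed over the cells of a name in a library and scaled to the total of those cells. In the smallest sum, 3 UMIs are worth 14.8 CPM, so low levels at 120 h are coarse. Where 5 values stand together they are replicates 1 and 2 of whole stembryos and the posterior part at 120 h, then replicates 1 and 2 at 96 h. NMPs A cells had median depths between 0.883 and 1.01 of their own library's median and median mitochondrial shares between 1.94% and 2.87%. Across pairs of libraries 75 cell barcodes occurred in both, and none of them was an NMPs A cell in both. Because the names came from clustering these same cells, every difference between NMPs A and cells of another name is given as a description with no test.

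The label was checked against 8 markers given for NMPs A (Wnt6, Lix1, Wnt3a, Cyp26a1, T, Msx1, Wnt5b and Mnx1), and all 8 stood above the other cells of the library in each of 5 libraries. These markers were picked with results of these cells known, so their levels describe the cluster and are no independent support for its name. Of 9895 genes measured at a mean of 5 CPM or more, 6.21% were above and 6.59% below the other cells in every library. Ranked among all names with at least 10 cells in a library, NMPs A was first or second for each of the 8 markers in each library. It was first in 4 of 5 libraries for Wnt6, Wnt3a, Cyp26a1, T and Wnt5b.

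Cyp26a1, the retinoic acid-degrading enzyme, was the clearest of them. It stood at 69.1, 106 and 131 CPM in NMPs A at 120 h and 69.3 and 91.5 CPM at 96 h. The other cells had 13.5, 16.1 and 26.5 CPM at 120 h, and at 96 h 7.42 and 22.2 CPM. The lowest value in NMPs A was thus above the highest in the other cells, and the log2 ratio, taken with 5 CPM added to both sides, lay between 1.82 and 2.58. T had 158, 155 and 145 CPM in NMPs A at 120 h and 213 and 184 CPM at 96 h, against 35.9, 29.8 and 52.2 CPM and 91.4 and 128 CPM in the other cells. The T ratio was widest in 120 h replicate 2 (2.20) and narrowest in 96 h replicate 2 (0.50), where most of the other cells were NMPs B.

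The Wnt ligands among the markers followed the same order. Wnt6 had 29.6, 42.3 and 17.9 CPM in NMPs A at 120 h and 49.0 and 31.4 CPM at 96 h, against 3.53, 1.14 and 3.76 CPM and 18.5 and 21.3 CPM in the other cells. Wnt3a had 44.4, 28.2 and 30.5 CPM in NMPs A at 120 h and 33.1 and 35.6 CPM at 96 h, against 6.93, 3.23 and 5.91 CPM and 10.3 and 18.8 CPM in the other cells. Within each library both ligands were higher in NMPs A. Across libraries Wnt3a did not overlap and Wnt6 did, and for both the ratio was smallest in 96 h replicate 2. Wnt5b ranged between 34.5 and 92.2 CPM in NMPs A and between 13.1 and 58.3 CPM in the other cells. Msx1, a homeobox factor that responds to Bmp, and Mnx1, a homeobox factor of the tail end, notochord and motor neurons, had their lowest NMPs A values in 120 h replicate 1. There Msx1 stood at 24.7 CPM in NMPs A and 16.2 CPM in the other cells, and Mnx1 at 14.8 and 10.2 CPM; these are levels of a few UMIs in 13 cells.

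**Figure D2:**
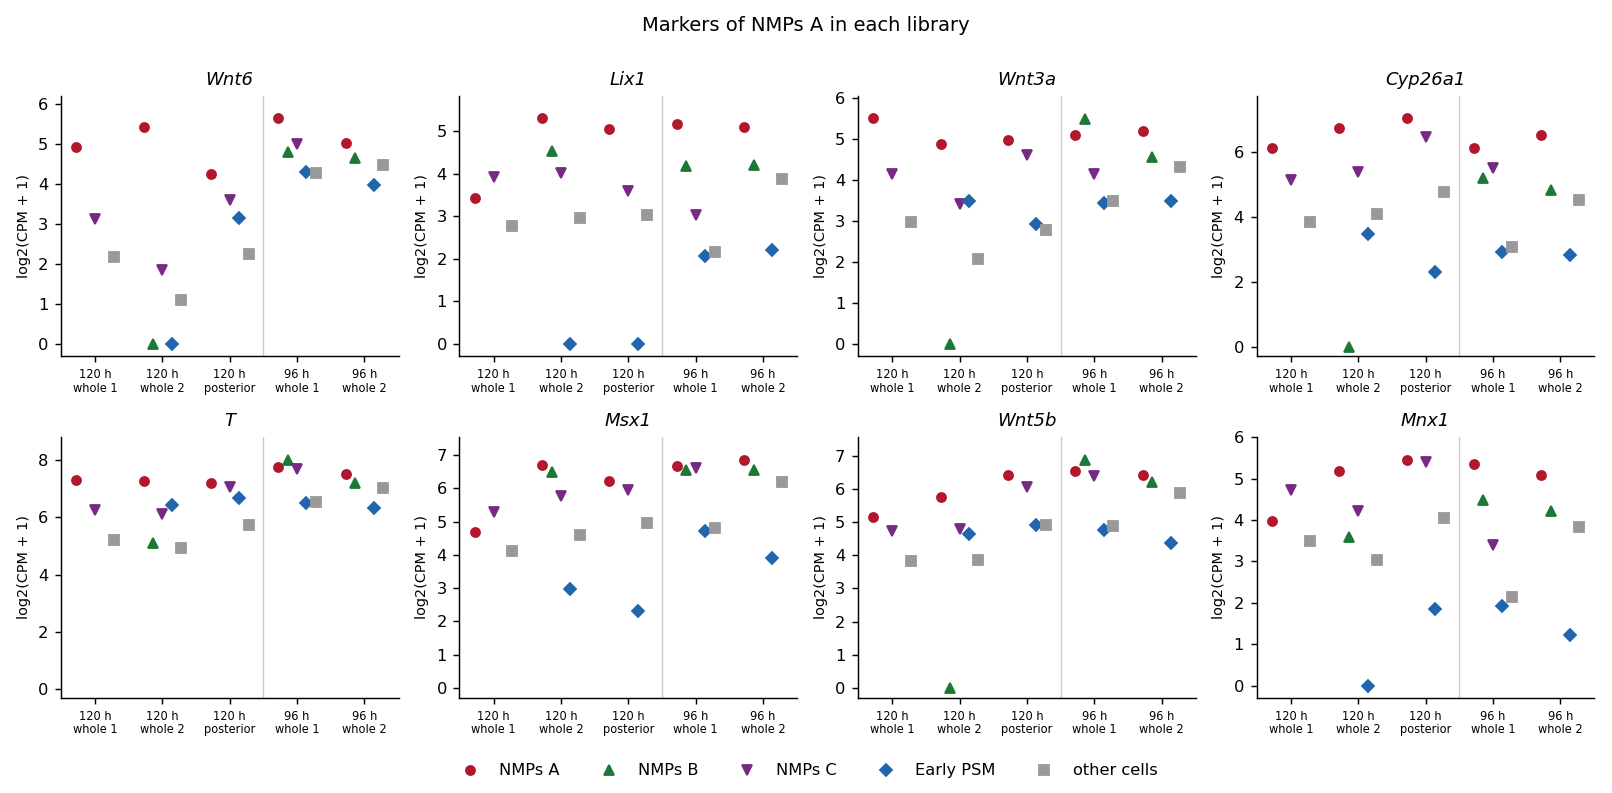
Level of the 8 markers as log2 of CPM plus 1 (vertical axis) by library, 120 h left of 96 h, with 1 symbol each for NMPs A, NMPs B, NMPs C, Early PSM and all other cells of that library (names with under 10 cells are not drawn). The NMPs A symbol lies above that of the other cells for every marker in every library, and Cyp26a1 is the only marker at 2-fold or more in all 5.

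The wider list of NMP and tail bud genes gave the same picture. Of its 19 measured genes 14 were above the other cells in every library and none below, with a median log2 ratio of 1.15, beside 0.00 over all genes measured. Among 10 core neuromesodermal genes, 8 were above in every library (median 1.25). The exceptions in the core list were Sox2 and Nkx1-2, a homeobox factor of the preneural tube, and in the wider list also Cdx1, Sall4 and Wnt8a. Sox2 had 104, 151 and 127 CPM in NMPs A at 120 h and 75.4 and 121 CPM at 96 h, against 83.6, 161 and 144 CPM and 8.02 and 111 CPM in the other cells. Sox2 was therefore far above the other cells only in 96 h replicate 1, where 2006 of the 2173 other cells were Early PSM, the early presomitic mesoderm. Nkx1-2 had 113, 127 and 131 CPM in NMPs A at 120 h and 92.0 and 143 CPM at 96 h, and exceeded the other cells in all libraries but 96 h replicate 2, where those had 158 CPM.

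Markers of other cell types were checked by their summed level. Summed somite markers came to 49.3, 31.7 and 52.0 CPM in NMPs A at 120 h and 10.0 and 12.9 CPM at 96 h, against 1031, 774 and 412 CPM and 149 and 81.6 CPM in the other cells. Of 7 measured somite genes 6 were below the other cells in every library (median -1.79). Summed endoderm markers stood between 10.6 and 17.1 CPM in NMPs A and between 10.9 and 66.9 CPM in the other cells, and NMPs A were above the other cells in replicate 1 of both times, with 14.8 against 10.9 CPM in each. Summed pluripotency markers stood between 5.38 and 32.1 CPM in NMPs A and between 19.1 and 204 CPM in the other cells, and NMPs A were above only in 120 h replicate 1, with 24.7 against 19.1 CPM. Neural markers did not follow one order. Summed spinal cord markers came to 242, 426 and 321 CPM in NMPs A at 120 h, against 401, 565 and 421 CPM in the other cells, and at 96 h to 309.8 and 299.8 CPM in NMPs A, against 190.3 and 228 CPM in the other cells. Ncam1, a neural adhesion molecule, or Hes5, a Notch target, was the largest part of that sum. Summed surface ectoderm markers were higher in NMPs A in every library, with 29.6, 56.3 and 26.9 CPM at 120 h and, at 96 h, 57.4 and 45.0 CPM, against 9.02, 8.33 and 11.3 CPM and 23.8 and 28.7 CPM in the other cells. Wnt6, itself a marker of NMPs A, was the largest part of that sum in NMPs A of each library. Presomitic mesoderm markers changed sides in sum between the times. At 120 h NMPs A held 1095, 754 and 973 CPM of them, above the other cells with 469, 326 and 709 CPM. At 96 h the NMPs A sums, 909 and 951 CPM, lay below those of the other cells, 1934 and 999.8 CPM. Gene by gene, 5 of 10 measured were below the other cells in every library and none above. Rspo3, a secreted Wnt enhancer also made in the tail bud, was the largest part of the NMPs A sum in each library.

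Joint detection of T and Sox2 in single cells was read after each cell had been thinned to 4000 UMIs, leaving out shallower cells. In NMPs A at 120 h both were detected in 0 of 13 cells (exact 95% upper bound 24.7%), 7 of 31 cells (22.6%) and 3 of 45 cells (6.67%). At 96 h both were detected in 338 of 2765 cells or 12.2% (11 to 13.5%) and in 48 of 314 cells or 15.3% (11.5 to 19.8%). The product of the separate shares of T and of Sox2 was 9.47, 21.9 and 15% at 120 h and 13.2 and 15% at 96 h, which at 96 h lay within the interval of the joint share. The mean over the 5 libraries was 11.4 ± 8.56% (SD, n = 5), and it was 49.2% with no thinning, since a deeper cell shows more genes. Early PSM, which should lack Sox2, had 0.748 and 1.01% at 96 h, against 12.2 and 15.3% in NMPs A of the same libraries. Other cells showed joint detection too, with 2.07, 5.54 and 6.18% of Spinal cord A cells at 120 h and 7.10% of Endoderm cells in the posterior part. The 0% of NMPs A in 120 h replicate 1 was below the 2.07% of Spinal cord A there. The 6.67% of NMPs A in the posterior part lay between Spinal cord A and Endoderm of that part. NMPs B of these libraries, at 11.6 and 11.7%, and NMPs C of the 120 h libraries, at 8.41, 9.80 and 11.9%, were in the range of NMPs A.

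**Figure D3:**
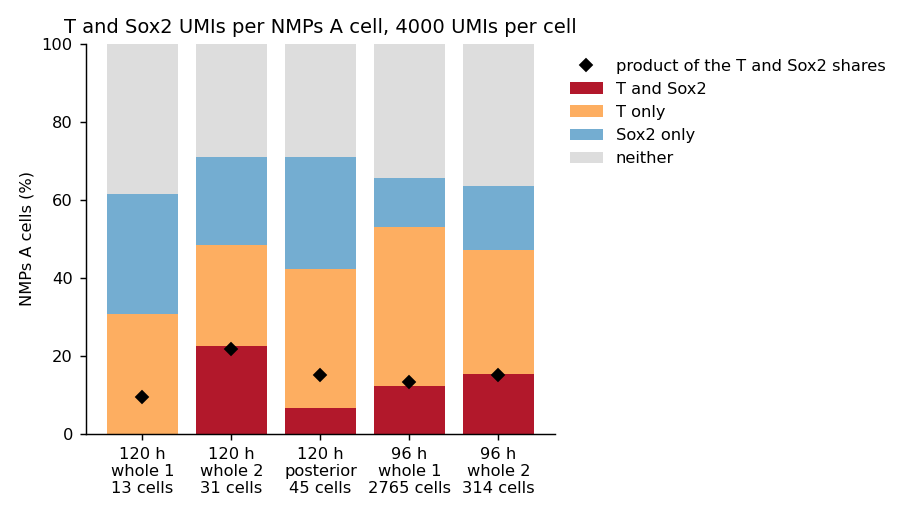
NMPs A cells (percent, vertical axis) with at least 1 UMI of T and Sox2, T only, Sox2 only or neither after thinning to 4000 UMIs, by library, 120 h left of 96 h, with a diamond at the product of the T and Sox2 shares. The joint share is 12.2 and 15.3% at 96 h, beside products of 13.2 and 15%, and varies between 0 and 22.6% in the few cells of 120 h.

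Only 4 genes, or 0.0404% of those measured, were at least 2-fold higher in NMPs A than in the other cells in every library, and 8, or 0.0808%, were at least 2-fold lower. These counts depended on the libraries, since leaving out 96 h replicate 2, whose other cells were mostly NMPs B, gave 18 higher and 18 lower. The higher genes were Cyp26a1, Tril, Gnal and Arl5c. Tril, which encodes a co-receptor of Toll-like receptors, had 78.9, 113 and 86.0 CPM in NMPs A at 120 h and 62.7 and 56.5 CPM at 96 h, against 32.7, 30.7 and 32.4 CPM and 9.30 and 18.9 CPM in the other cells. Gnal, a G protein alpha subunit best known from olfactory neurons, had 44.4, 42.3 and 66.3 CPM in NMPs A at 120 h and 47.0 and 39.8 CPM at 96 h, against at most 19.2 CPM in the other cells of any library. Neither gene overlapped between NMPs A and the other cells. Arl5c, a small GTPase, was lower, with 12.5 to 29.6 CPM in NMPs A and 1.61 to 3.04 CPM in the other cells.

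The next genes in order of their smallest ratio included Fgf17, Cdx4, Wnt3a, Notum and Axin2. Fgf17, an Fgf ligand of the tail bud, had 133, 166 and 235 CPM in NMPs A at 120 h and 130.3 and 61.1 CPM at 96 h, against 46.7, 29.2 and 71.2 CPM and 36.4 and 28.5 CPM in the other cells. Cdx4, a homeobox factor upstream of posterior Hox genes, had 148, 155 and 177 CPM in NMPs A at 120 h and 110.2 and 98.1 CPM at 96 h, and its log2 ratio to the other cells was 0.90 or more in every library. Axin2 and Notum are feedback inhibitors that Wnt signalling induces, and their smallest ratios were 0.58 and 0.71. Evx1os, a transcript antisense to the posterior homeobox gene Evx1, had a smallest ratio of 0.65, and whether the authors' counting kept the strands apart is not given in the sources used here. Mgst1, Amph, Ets2, Lima1, Aopep and Limch1 made up the rest of the 15 highest, with smallest ratios between 0.61 and 0.76.

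The lower genes included several that are known from paraxial mesoderm. They were Pcdh19, Foxc1, Foxc2, Aldh1a2, Plxna2, Prrx2, Frzb and Fst. Pcdh19, a protocadherin, had 14.8, 3.52 and 7.17 CPM in NMPs A at 120 h and 8.62 and 6.98 CPM at 96 h, against 39.4, 30.3 and 54.9 CPM and 166 and 63.1 CPM in the other cells. Foxc1 and Foxc2 are forkhead factors of paraxial mesoderm, and Foxc1 had at most 19.7 CPM in NMPs A and at least 30.7 CPM in the other cells of any library. Aldh1a2, which makes retinoic acid, had 0, 3.52 and 1.79 CPM in NMPs A at 120 h and 1.03 and 2.44 CPM at 96 h, against 11.8, 16.2 and 18.4 CPM and 52.1 and 53.0 CPM in the other cells. The enzyme that makes retinoic acid was thus low in NMPs A in each of the 5 libraries and the enzyme that degrades it was high. Meis2, a homeobox factor that retinoic acid induces, had 19.7, 59.9 and 53.8 CPM in NMPs A at 120 h and 22.8 and 58.6 CPM at 96 h, against 189.8, 296 and 125 CPM and 131 and 112 CPM in the other cells.

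The other pathway lists are read against the 6.21% of all genes above and 6.59% below in every library. Of 15 measured retinoic acid genes 4 were above and 6 below, Cyp26a1 and Aldh1a2 being the only ones at 2-fold or more. Of 7 Wnt ligands 4 were above and none below, while of 26 Wnt receptors, response and feedback genes 5 were above and 5 below. Of 9 Fgf ligands and receptors 3 were above and 2 below, and of 13 Fgf response genes 3 were above. Of 13 Notch and segmentation clock genes 4 were below and none above, among them Notch1, with 34.5, 35.2 and 34.0 CPM in NMPs A at 120 h and 61.2 and 45.7 CPM at 96 h, against 98.3, 90.0 and 74.2 CPM and 149 and 80.1 CPM in the other cells. Of 18 cell cycle genes 1 was above and 1 below. The deposited phase calls put 15.4, 29.4 and 28.9% of NMPs A cells in G2M at 120 h and 38.1 and 41.0% at 96 h, against 41.6, 40.2 and 39.1% and 33.4 and 40.1% of the other cells.

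The comparison with NMPs B rests on 3 libraries, 120 h replicate 2 with 10 NMPs B cells, 96 h replicate 1 with 43 and 96 h replicate 2 with 1632. Of 10118 genes measured, 1 (0.00988%) was at least 2-fold higher in NMPs A in all 3 and 6 (0.0593%) were at least 2-fold lower. With no minimum size, 18.2% were above and 13.2% below. Without 120 h replicate 2 the counts were 1 higher and 19 lower, without 96 h replicate 1 they were 5 and 12, and without 96 h replicate 2 they were 17 and 24. The higher gene was Apcdd1, an inhibitor of Wnt receptors, with 31.7 CPM in NMPs A at 120 h and 25.4 and 24.1 CPM at 96 h, against 11.1 CPM and 7.47 and 8.09 CPM in NMPs B. In the 10 NMPs B cells of 120 h replicate 2, 11.1 CPM is 1 UMI, so levels there are coarse.

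The lower genes included Lefty1, Mt2, Dppa5a, F2rl1 and Fst, several of which are known from epiblast and early streak. Dppa5a, a pluripotency gene, had 3.52 CPM in NMPs A at 120 h and 2.36 and 16.4 CPM at 96 h, against 111 CPM and 24.5 and 61.5 CPM in NMPs B. Fst, a secreted activin inhibitor, was not detected in NMPs A of that 120 h library and had 8.11 and 19.5 CPM at 96 h, against 11.1 CPM and 68.3 and 129 CPM in NMPs B. The 11.1 CPM is the smallest level detectable in NMPs B of that library. Epcam, an epithelial adhesion molecule, had 21.1 CPM in NMPs A at 120 h and 60.9 and 48.5 CPM at 96 h, against 66.5 CPM and 176 and 88.0 CPM in NMPs B. Within 96 h, Pou5f1, the pluripotency factor Oct4, had 6.12 and 9.42 CPM in NMPs A, against 35.2 and 57.7 CPM in NMPs B. In 120 h replicate 2 Pou5f1 was not detected in NMPs A, nor in the 10 NMPs B cells thinned to 4000 UMIs. Of 3 measured pluripotency genes 1 was above and 1, Dppa5a, below NMPs B in every library. Wnt8a, a ligand of the primitive streak, had 2.38 and 6.28 CPM in NMPs A at 96 h, against 14.9 and 60.4 CPM in NMPs B. Of the 8 markers 5 were above NMPs B in all 3 libraries, namely Wnt6, Lix1, Cyp26a1, Msx1 and Mnx1. T, Wnt3a and Wnt5b were below NMPs B in 96 h replicate 1. There they had 213, 33.1 and 92.2 CPM in NMPs A, against 256, 43.7 and 116 CPM in NMPs B.

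Since each 96 h replicate held mostly 1 of these 2 names, the difference between names and that between libraries were set side by side. Of 9525 genes, 210 differed by at least 2-fold between NMPs A of replicate 1 and NMPs B of replicate 2. Of these, 29 differed by as much in the same direction between the 2 names within replicate 2. Between replicate 1 and replicate 2 within NMPs A, 105 differed by as much in the same direction, and 5 did both. Both comparisons share cells with the first, so these overlaps are a description only. Within NMPs A, 132 of the 9525 genes were 2-fold apart between the 2 replicates. Within replicate 2, 31 genes were 2-fold apart between NMPs A and NMPs B, with Wnt8a at a log2 ratio of -2.54 and Pou5f1 at -2.12. The higher ones were Itgb8, an integrin subunit, and Tril, Apcdd1, Cyp26a1 and Gnal, of which Tril, Cyp26a1 and Gnal were also higher than the other cells as a whole.

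No gene was 2-fold higher (0%) and none 2-fold lower (0%) than in NMPs C, the NMP name of 120 h, in all of the 4 libraries compared, among 9852 measured. Leaving out 1 library at a time gave 0 to 2 higher and 0 to 5 lower. In 6.17% of them NMPs A were above and in 8.85% below NMPs C in every library. Of the 8 markers 5 were above, and of 18 NMP and tail bud genes 8 were above and none below, with a median log2 ratio of 0.26 beside -0.03 over all genes. Spint1, an inhibitor of membrane serine proteases in epithelia, had the largest smallest ratio. It had 24.7, 24.7 and 41.2 CPM in NMPs A at 120 h and 35.3 CPM in replicate 1 at 96 h, against 8.34, 7.65 and 16.6 CPM and 19.0 CPM in NMPs C. Cyp26a1 was next, with 69.1, 106 and 131 CPM in NMPs A at 120 h and 69.3 CPM at 96 h, against 34.3, 41.0 and 87.0 CPM and 45.1 CPM in NMPs C. Epcam had 74, 21.1 and 62.7 CPM in NMPs A at 120 h and 60.9 CPM at 96 h, against 11.6, 12.4 and 24.0 CPM and 45.1 CPM in NMPs C. In both libraries with at least 10 cells of all 3 NMP names, 120 h replicate 2 and 96 h replicate 1, Epcam in NMPs A lay between NMPs B and NMPs C. Zmiz1, a co-regulator of transcription, led the lower genes, with 24.7, 42.3 and 28.7 CPM in NMPs A at 120 h and 38.9 CPM at 96 h, against 61.1, 78.2 and 43.6 CPM and 59.3 CPM in NMPs C. The remaining named genes on the high side, Evx1os, BC028528, Twf2, Sema4d and Ly6e, had smallest ratios between 0.34 and 0.47.

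Early PSM, the mesodermal cells that share the 96 h stembryos with NMPs A, had the most genes set apart of the 3 names compared. Across 4 libraries (120 h replicate 2 and posterior part, 96 h replicates 1 and 2), 63 of 9886 genes (0.637%) were at least 2-fold higher in NMPs A and 85 (0.86%) at least 2-fold lower. Slc2a3, a glucose transporter, headed the higher genes with 239 and 142 CPM in NMPs A at 120 h and 245 and 379 CPM at 96 h, against 17.1 and 9.17 CPM and 24.2 and 35.3 CPM in Early PSM. Sox2 had 151 and 127 CPM in NMPs A at 120 h and 75.4 and 121 CPM at 96 h, against 27.3 and 14.4 CPM and 4.84 and 9.55 CPM in Early PSM. NMP and tail bud genes were at least 2-fold higher for 11 of 18 measured, and core neuromesodermal genes for 8 of 10, with Epha5 and Nkx1-2 at smallest log2 ratios of 2.51 and 2.23. T itself was not among them, with 155 and 145 CPM in NMPs A at 120 h and 213 and 184 CPM at 96 h, against 85.4 and 102 CPM and 89.3 and 78.7 CPM in Early PSM.

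Among the genes lower in NMPs A than in Early PSM were some of the lists for paraxial mesoderm and Notch signalling. Of 9 presomitic mesoderm genes 5 were at least 2-fold lower (Tbx6, Dll1, Dll3, Lfng and Cited1), and of 13 Notch and clock genes 4 were (Dll1, Dll3, Notch1 and Lfng). Tbx6, which commits cells to paraxial mesoderm, had 0 and 30.5 CPM in NMPs A at 120 h and 26.2 and 20.6 CPM at 96 h, against 147 and 249 CPM and 169.8 and 177 CPM in Early PSM. Snai1, which drives the loss of epithelial adhesion, had 7.04 and 5.38 CPM in NMPs A at 120 h and 5.11 and 3.14 CPM at 96 h, against 41.0 and 68.1 CPM and 43.2 and 35.3 CPM in Early PSM. Fn1, a matrix protein of mesenchyme, was 2-fold lower as well, while Epcam and Cldn6, both epithelial, were 2-fold higher. Hes7, the oscillating repressor of the segmentation clock, and Rspo3 did not follow the other presomitic genes. Hes7 had 257 and 272 CPM in NMPs A at 120 h and 246 and 291 CPM at 96 h, against 236 and 379 CPM and 284 and 339 CPM in Early PSM. Pcdh19, Plxna2, Aldh1a2 and Frzb were the 4 genes furthest below, with log2 ratios of -2.69 or lower in every library.

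Within NMPs A, 120 h was tested against 96 h on the summed UMIs of the 4 whole libraries with edgeR's quasi-likelihood test and Benjamini-Hochberg adjustment over 9153 genes. The 120 h sums held 13 and 34 cells, and genes that set the cluster names are held alike at both times by the way the cells were chosen. At an adjusted p under 0.05, 2 genes were higher (0.0219%) and 2 lower (0.0219%) at 120 h, and 555 genes had an unadjusted p under 0.05. Leaving out 1 library at a time gave 0 to 34 genes, with 0 without 120 h replicate 1 and 34 without 96 h replicate 1; the lone library of a time is then assumed to vary like those of the other time. In these whole libraries replicate numbers mark a shared batch. With the replicate as a block, 43 genes were higher (0.47%) and 43 lower (0.47%), all 4 of the unblocked genes among them. That fit leaves 1 degree of freedom among the libraries, so its p-values lean on the spread shared over genes.

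Hoxc10, a Hox gene of the lumbar level, had the largest difference. It stood at 192 and 127 CPM (39 and 36 UMIs) in NMPs A of whole stembryos and 84.2 CPM in the posterior part at 120 h, against 2.15 CPM (142 UMIs) and 0 CPM at 96 h. The groups did not overlap, and the log2 difference was 6.29 ± 0.48 (SE, n = 2 each; edgeR adjusted p = 0.00014). Peg3, an imprinted gene for a zinc finger protein, had 577 and 595 CPM at 120 h, against 174 and 232 CPM at 96 h (log2 difference 1.49 ± 0.20, edgeR adjusted p = 0.018). Grsf1, an RNA-binding protein, was lower with 83.9 and 84.5 CPM at 120 h, against 354 and 617 CPM at 96 h (log2 difference -2.56 ± 0.31, edgeR adjusted p = 0.0099). With the posterior part added as another library of 120 h, the adjusted p was 0.053 for Peg3.

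Hoxc10, Peg3 and Grsf1 had these levels in other cells of the same libraries. Hoxc10 had 224, 124 and 97.0 CPM in NMPs C at 120 h and was not detected in the 24 NMPs C cells of 96 h replicate 1, while Early PSM had at most 3.42 CPM in the libraries compared. Peg3 had 626, 633 and 421 CPM in NMPs C at 120 h, against 164 CPM in NMPs C of 96 h replicate 1. Grsf1 had 80.4, 85.8 and 80.5 CPM in NMPs C at 120 h, against 237 CPM in NMPs C of 96 h replicate 1. In NMPs C, as in NMPs A, the 120 h values of Peg3 were thus above and those of Grsf1 below the 96 h value, from 1 library and 24 cells at 96 h.

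**Figure D4:**
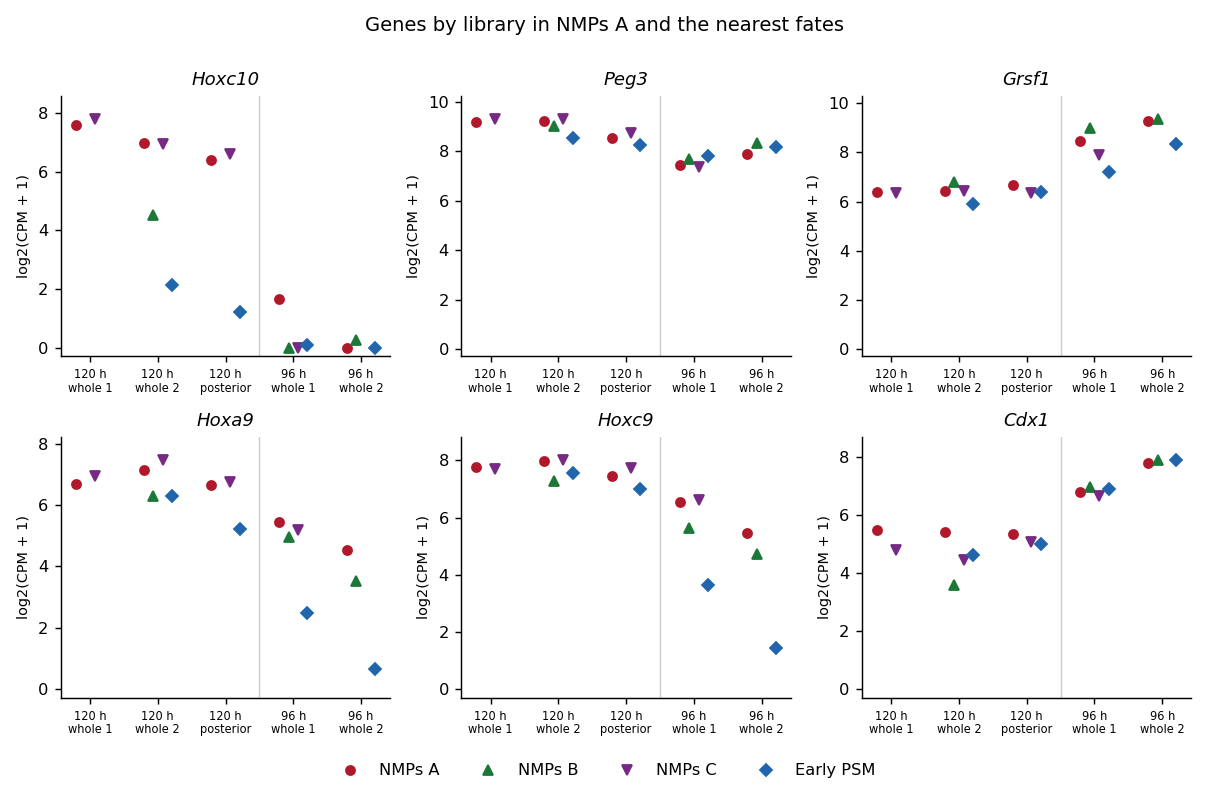
Level as log2 of CPM plus 1 (vertical axis) of Hoxc10, Peg3 and Grsf1, which were called between times, and of Hoxa9, Hoxc9 and Cdx1, by library, 120 h left of 96 h, in NMPs A, NMPs B, NMPs C and Early PSM, 1 symbol per library. In NMPs A, Hoxc10, Peg3, Hoxa9 and Hoxc9 lie higher and Grsf1 and Cdx1 lower in every 120 h library than in either 96 h library, the posterior part being no part of the test.

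The Hox lists were read by paralog number. Of 12 measured genes of paralogs 1 to 4 none was called by edgeR or DESeq2 and 1 had an unadjusted p under 0.05, with a median log2 difference of 0.15 (all genes -0.01). Of 14 genes of paralogs 5 to 9 none was called by edgeR without the block or by DESeq2, 5 had an unadjusted p under 0.05 and 4 were higher with the block, the median being 0.23. Of 2 tested genes of paralogs 10 to 13, Hoxc10 was called without the block and both Hoxc10 and Hoxa10 with it. Hoxa9 had 104 and 141 CPM in NMPs A of whole stembryos and 100.3 CPM in the posterior part at 120 h, against 42.4 and 22.3 CPM at 96 h. Hoxc9 had 217, 254 and 174 CPM at 120 h, against 93.7 and 42.9 CPM at 96 h. Hoxd9 had 93.7, 81.0 and 96.8 CPM at 120 h, against 24.3 and 5.58 CPM at 96 h. For each of these the times did not overlap. In edgeR's test without and with the replicate block the adjusted p was 0.23 and 1.3e-09 for Hoxa9, 0.25 and 1.3e-14 for Hoxc9, and 0.48 and 1.3e-10 for Hoxd9.

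Over all Hox genes the order was mixed. The heat map holds the 31 Hox genes with a mean of at least 2 CPM over the NMPs A libraries. Hoxd1, Hoxa4, Hoxa6, Hoxc6, Hoxd8, Hoxa9, Hoxc9, Hoxd9, Hoxa10 and Hoxc10 were higher in every 120 h library than in either 96 h library. Hoxa6 and the drawn genes of paralogs 10 to 13 (Hoxa10, Hoxc10, Hoxd10 and Hoxd11) reached that mean only through their 120 h levels. By this choice they could not come out lower at 120 h. Hoxb1, Hoxb8 and Hoxc8 were lower in every 120 h library. The share of all genes ordered this way was not taken, so this ordering is no result about Hox genes as a set. Hoxa6 rested on 1, 2 and 1 UMIs at 120 h, Hoxd1 on 2, 6 and 6, and Hoxd8 on 5, 4 and 19. Hoxa4 had 29.6, 28.2 and 12.5 CPM at 120 h, against 10.1 and 9.41 CPM at 96 h, on 6, 8 and 7 UMIs at 120 h. Hoxc6 had 311, 232 and 183 CPM at 120 h, against 165 and 93.9 CPM at 96 h. Hoxb1 had 83.9, 98.6 and 109 CPM in NMPs A at 120 h, against 121 and 134 CPM at 96 h, and Hoxb9 had 207, 282 and 247 CPM at 120 h, against 227 and 302 CPM at 96 h. The times did not overlap for Hoxb1 and overlapped for Hoxb9, and neither gene was called. Hoxa10 had 24.7, 14.1 and 7.17 CPM at 120 h, which are 5, 4 and 4 UMIs, against 0.864 and 0 CPM at 96 h. In NMPs C of the same libraries Hoxa10 stood at 50.8, 40.8 and 20.2 CPM, above NMPs A in each.

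**Figure D5:**
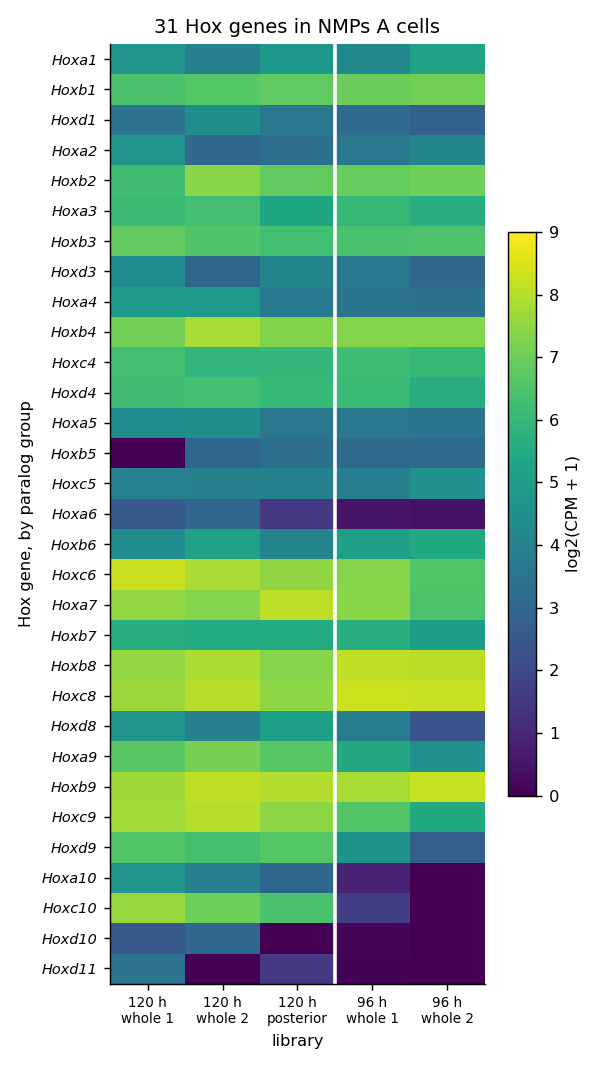
Heat map of the 31 Hox genes with a mean of at least 2 CPM in NMPs A (rows, sorted by paralog number) by library (columns, 120 h left of 96 h), with colour as log2 of CPM plus 1. Hoxd1, Hoxa4, Hoxa6, Hoxc6, Hoxd8, Hoxa9, Hoxc9, Hoxd9, Hoxa10 and Hoxc10 are higher in every 120 h column than in either 96 h column. Hoxb1, Hoxb8 and Hoxc8 are lower. Hoxc10 stands at 192 and 127 CPM in whole stembryos at 120 h and 2.15 and 0 CPM at 96 h. The share of all genes ordered this way was not taken.

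The NMP markers themselves were not called. Choosing cells by the same name at both times holds the genes that set that name alike. The lack of calls is therefore not read as a result about these genes. None of the 8 markers and none of the 10 core neuromesodermal genes passed edgeR's test in either direction, with or without the block, and none passed in DESeq2. At an unadjusted p under 0.05 there was 1 gene in each of these lists. T had a log2 difference of -0.40 ± 0.23 (edgeR adjusted p = 0.89) and Wnt5b, the marker with the widest difference, had -1.04 ± 0.31 (edgeR adjusted p = 0.66). With SEs between 0.23 and 0.45 on the log2 scale for the 8 markers, differences of the size seen for Wnt5b were not resolved at this depth.

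The following list genes did not pass edgeR's test without the block and passed with it. Of those named here Vim, Fgfbp3, Etv4 and Tcf15 also passed in DESeq2 without a block. Cdx1, the Cdx factor that retinoic acid and Wnt induce, had 44.4, 42.3 and 39.4 CPM in NMPs A at 120 h, against 109 and 220.2 CPM at 96 h (log2 difference -1.95 ± 0.40, edgeR adjusted p = 0.25 without and 1.8e-08 with the block). NMPs B and Early PSM of the 96 h libraries had Cdx1 at 124 and 238 CPM and at 119 and 238 CPM. Fgfbp3, an Fgf-binding protein, had 24.7, 14.1 and 16.1 CPM at 120 h, against 91.4 and 223 CPM at 96 h. Vim, the mesenchymal filament protein vimentin, had 237, 229 and 192 CPM at 120 h, against 91.5 and 70.5 CPM at 96 h (edgeR adjusted p = 0.098 without and 6.8e-10 with the block). Etv4 and Sp5, targets of Fgf and Wnt signals, together with Crabp1, Hes5, Cited1 and Top2a were also lower with the block. Wnt5a, Hoxc6, Tcf15 and Ncam1 were also higher with it. In the posterior part, which was outside the test, Etv4 had 147 CPM, against 123 and 159 CPM at 96 h. Hes5 had 80.6 CPM there, against 131 and 63.2 CPM, and Crabp1 73.5 CPM, against 43.6 and 156 CPM. These values lay within the 96 h range, while Sp5, Cited1 and Top2a lay below it in the posterior part.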

How the data were processed

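Members, lists and tests were chosen with earlier results of these data known. The authors deposited raw UMI counts per gene and cell, and, per cell, the mitochondrial percent, cell cycle scores with phase calls, the batch and the cluster name. Per the submitters' processing notes and the study's methods, Cell Ranger 6.0 (mm10) and Seurat 4.0.2 were used, with limits on UMIs relative to the library mean, the upper of which stood in for doublet removal, and on mitochondrial share; no doublet caller was run here. In the deposited table the largest cell held 2.48 times its library's mean UMI count and the highest mitochondrial share was 7.98%.

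UMIs were summed per library and name and scaled to CPM. NMPs A were compared with cells of another name in libraries with at least 10 cells of each, with a pseudocount of 5 CPM and a fold of 2; a gene was measured at a mean of 5 CPM or more in either. Named genes were the 8 given markers, the 15 highest and 10 lowest against other cells and the 8 highest and lowest against NMPs B, NMPs C and Early PSM by their least favourable library (at least 20 CPM), the genes called between times, and list members; a few of these are not reported here, and genes outside it (Arl5c, Plxna2, Foxc2, Itgb8 and the like) were named after their values were seen. Times were tested with edgeR 4.0.16 (TMM, filterByExpr, R 4.3.3), with DESeq2 1.42.0 as an alternative. In the deposited annotation replicate numbers mark a shared batch among the whole libraries, while the posterior and anterior parts were batch 2. Replicate differences at 120 h and 96 h correlated with r = 0.20 over 9153 genes, across genes, which are not independent. The edgeR step was tested on simulated counts with known changes. Other steps used Python 3.11.15, numpy 2.4.6, pandas 2.3.3 and scipy 1.17.1, and figures matplotlib 3.10.9.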

Additional observations from a re-analysis of the deposited data

Results flagged for a closer look

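For 9 list genes, every 120 h library had NMPs A on one side of the other cells and every 96 h library had it on the opposite side. None of these differences was tested, and the other cells differ in makeup between the times and between the 96 h replicates. The 9 genes were picked by this pattern among list genes with a mean of at least 20 CPM in NMPs A. The share of all genes with the pattern was not taken, so the count of 9 is not read as a result. The values are mean log2 ratios of NMPs A to the other cells. Cdx1, a Cdx factor, averaged 1.07 at 120 h and -0.10 at 96 h, a difference of 1.17. Spry4, an inhibitor that Fgf signalling induces, averaged 1.21 at 120 h and -0.23 at 96 h, a difference of 1.44. Hoxb1, an anterior Hox gene, averaged 0.19 at 120 h and -0.32 at 96 h, a difference of 0.51. These 3 stood above the other cells at 120 h and below them at 96 h.

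The remaining 6 stood below the other cells at 120 h and above them at 96 h. The Wnt receptor Fzd3 averaged -0.53 at 120 h and 0.31 at 96 h (difference -0.85). The co-receptor Lrp6 averaged -0.30 at 120 h and 0.02 at 96 h (difference -0.32). Sfrp2, a secreted Wnt modulator, averaged -0.46 at 120 h and 0.48 at 96 h (difference -0.94). Crabp2, a retinoic acid-binding protein, averaged -0.24 at 120 h and 0.45 at 96 h (difference -0.69). Top2a, a topoisomerase of dividing cells, averaged -0.85 at 120 h and 0.12 at 96 h (difference -0.97). Ccnb1, the mitotic cyclin B1, averaged -0.45 at 120 h and 0.09 at 96 h (difference -0.54). Beside these, the share of NMPs A cells called G2M was 15.4 to 29.4% at 120 h and 38.1 to 41.0% at 96 h, and its part in the result was not tested.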

How the results depend on the processing

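Most counts of genes at 2-fold moved with the pseudocount and the libraries. NMPs A at 120 h were 13 to 45 cells a library. A minimum of 50 cells thus left only the 2 libraries of 96 h against other cells and Early PSM, and only 96 h replicate 2 against NMPs B. The UMI limit left 2 libraries against NMPs B, and G1 cells left 4 against other cells. In these repeats fewer libraries had to pass. Genes higher than the other cells (4) became 7 with a pseudocount of 1 CPM, 1 with 20 CPM, 11 with at least 50 cells and 12 against the median of the other names, and 4 to 18 with 1 library left out. Genes lower than the other cells (8) became 24, 0 and 30 under the first 3 of these, 1 against the median of names, 14 in G1 cells and 8 to 18 with 1 library left out. Against NMPs B, the 1 higher gene became 10, 0 and 5, and 2 with at most 1.5 times the mean UMI count (1 to 17 with 1 library left out); the 6 lower became 30, 0, 31 and 20 (12 to 24). Against NMPs C, 5 genes were higher and 11 lower with 1 CPM, and 1 was higher under the UMI limit (0 to 2 and 0 to 5). Against Early PSM, the 63 higher genes became 120 with 1 CPM, 21 with 20 CPM and 119 with at least 50 cells (69 to 90), and the 85 lower became 30 with 20 CPM (92 to 98). The share difference ran between -55.2 and -11.1 points with 1 library left out. Joint detection of T and Sox2 was 5.72% thinned to 2500 UMIs and 49.2% unthinned. Between times, 86 genes were called with the replicate block, 16 by DESeq2, 34 with no filter on low counts, 11 with the posterior part added and 0 to 34 with 1 library left out (779 at an unadjusted p under 0.05 where it was 0). The cause of these moves was not tested. Of the repeats of the main results, 45 moved and 38 stayed the same. Counts of genes and the share of cells with T and Sox2 have no direction, so a reversal could not show in them. The difference in NMPs A share and the single-gene log2 values kept their sign in every repeat. For single genes, 112 repeats stayed the same, 7 moved and 9 lost their call. For the marker ratios, which carry no call, staying the same meant a change smaller than the SD over libraries. For the genes called between times it meant an adjusted p still under 0.05. A minimum of 50 cells was not run between times or against NMPs C, since no whole 120 h library reaches it.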
